A study of Mus musculus with 30 samples.

Results

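The 6 genes *Socs1*, *Socs3*, *Cish*, *Pim1*, *Pim2* and *Pim3* were followed in bone marrow-derived dendritic cells (BMDCs). They were found by Ensembl identifier among the 43629 genes of a table of RNA-seq read counts, all 6 had a row, and all 6 passed the filter on low counts in each of the 13 comparisons made. Bone marrow of adult mice of both sexes was grown for 6 days in medium with GM-CSF, from wild-type (WT) C57BL/6J mice or from *Cacnb3*-/- mice on a C57BL/6N background that lack the β3 subunit of voltage-gated calcium channels, so that strain and genotype differed together. Cells were given 500 µM extracellular ATP, a danger signal of damaged tissue, for 30 min. The labels give harvest right after this pulse or 24 h later, whereas the study's text places the earlier harvest 30 min after the pulse. Library names carry 5 numbers per genotype, and every number occurs with 3 endings (ctrl, 0p5h or 24h), for 30 libraries in all. The 3 libraries with the same number are called a culture here, although the labels do not say what the number marks. Statements about cultures below rest on that reading. The treatment field of the labels contradicts the library names for 2 of the 3 sets. It gives 30 min of ATP to the libraries named ctrl and vehicle to those named 0p5h. Each set is called by its library name here, and which of ctrl and 0p5h held the ATP-treated cells could not be settled from the labels. If the treatment field is right, a gene that is higher in 0p5h than in ctrl was higher in vehicle than with ATP.

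Cytokine receptors without a kinase of their own, among them the GM-CSF receptor, signal through Janus kinases (JAKs), which phosphorylate STAT transcription factors. SOCS1, SOCS3 and CISH, proteins of the suppressor of cytokine signaling family, are made from STAT target genes and act back on the pathway: SOCS1 and SOCS3 inhibit the JAKs themselves, CISH binds activated receptors of the GM-CSF, IL-3 and IL-2 kind, and all carry a SOCS box that recruits a ubiquitin ligase. PIM1, PIM2 and PIM3 are serine/threonine kinases that are active once they are made, so that their amounts are set largely by transcription and turnover, and they favor cell survival and protein synthesis. Several of these genes also answer to signals outside the JAK-STAT pathway.

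The genes lie on 6 chromosomes of GRCm38, the build named in the header of the count table. *Socs1* (ENSMUSG00000038037) is at chr16:10783808-10785536 on the minus strand, *Socs3* (ENSMUSG00000053113) at chr11:117966079-117970047 on the minus strand, and *Cish* (ENSMUSG00000032578) at chr9:107296026-107302784 on the plus strand. *Pim1* (ENSMUSG00000024014) is at chr17:29490812-29496111, *Pim2* (ENSMUSG00000031155) at chrX:7878262-7883432 and *Pim3* (ENSMUSG00000035828) at chr15:88862186-88865718, all on the plus strand. Reads were counted over all exons of a gene, with no strand option set. Of the exon bases of *Cish*, 740 (11.5%) are shared with the gene models *Gm17040* and *Gm17041*, and 468 of *Pim1* (17.7%) with *Gm26885*, so that reads from those stretches are of uncertain origin.

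RefSeq promoter windows (GRCm38.p6, 250 bases before to 50 after a transcript start) were found for 6 of 6 genes and searched on both strands for TTCNNNGAA, the palindrome that STAT proteins are known to bind. It lay in the windows of *Cish* and *Socs3* and in no window of *Socs1*, *Pim1*, *Pim2* or *Pim3*, while 2726 of 32851 mouse windows (8.3%) held it. The stretches below are those of *Cish* (chr9:107296654-107296683, plus strand, exon in the gene models of the table, 2 matches at positions 1 and 12 from the RefSeq start), of *Socs3* (chr11:117969501-117969530, minus strand, intron, 1 match at position -154), and, since *Pim3* was called between sets most often of the 6, the 150 bases before its gene model (chr15:88862036-88862185, plus strand), which hold no match. Capitals mark the matches and all are written 5′ to 3′.
Cish: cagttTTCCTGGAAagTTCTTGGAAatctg
Socs3: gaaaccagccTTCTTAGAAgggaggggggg
Pim3: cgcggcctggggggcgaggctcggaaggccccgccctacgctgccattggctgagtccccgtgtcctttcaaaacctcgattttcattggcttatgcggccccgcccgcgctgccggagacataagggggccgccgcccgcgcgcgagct
A match is a description of the letters and was not tested as a binding site. The short cAMP-response motif TGACG was in the window of *Cish* and of no other member (20.8% of all windows), and neither the full site TGACGTCA (1.79%) nor a CArG box (1.63%) was in any of the 6.

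Total counts were between 8237393 and 32164225 per library (median 19556920), which gave the least abundant member, *Pim2*, 64 to 302 counts in a library. Levels are in CPM, counts in every 1000000 of a library size scaled by TMM, a method that sets library scales from the bulk of genes. Counts of *Cacnb3* remained in the libraries labelled *Cacnb3*-/-: the mean over a culture's 3 libraries was 1387 ± 159 CPM in WT (SD, n = 5) and 988 ± 79.2 in the others (71.3% of WT), with no overlap between the genotypes. Counts were per gene, so a deletion of some of its exons could not be seen in them. Markers of dendritic cells (10 genes) summed to 16247 to 40057 CPM over the 30 libraries, with no gene under 1 CPM. Those of macrophages (8 genes) came to 338 to 1075 CPM, and those of neutrophils (8 genes) to 130 to 689 CPM. T cell markers (6 genes) stayed at 4.63 to 22.8 CPM, B cell markers (5 genes) at 0.614 to 5.1 CPM and mast cell markers (5 genes) at 0.739 to 5.29 CPM. In every group mean, 5 T cell markers (all but *Cd8a*), 4 B cell, 4 mast cell and 2 neutrophil markers (*Mpo* and *Elane*) were under 1 CPM.

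Per kilobase of exon, *Pim1* was far above the other 5 genes. In WT ctrl libraries the levels were 140 ± 29.8 CPM per kb for *Pim1* (SD, n = 5), 35.8 ± 6.33 for *Socs1*, 20.5 ± 2.25 for *Pim3*, 18.5 ± 9.39 for *Socs3*, 5.01 ± 2.51 for *Cish* and 3.01 ± 0.654 for *Pim2*. *Pim1* and *Socs1* did not overlap with the next gene in that order, whereas *Pim3* and *Socs3*, *Socs3* and *Cish*, and *Cish* and *Pim2* did. *Pim1* stood above *Socs1* without overlap in all 6 combinations of genotype and set. *Cish* was next to last in ctrl and 0p5h and last in 24h in both genotypes, where its level (2.43 ± 0.771 CPM per kb in WT and 2.02 ± 0.272 in libraries labelled *Cacnb3*-/-) overlapped with that of *Pim2*.

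**Figure D1:**
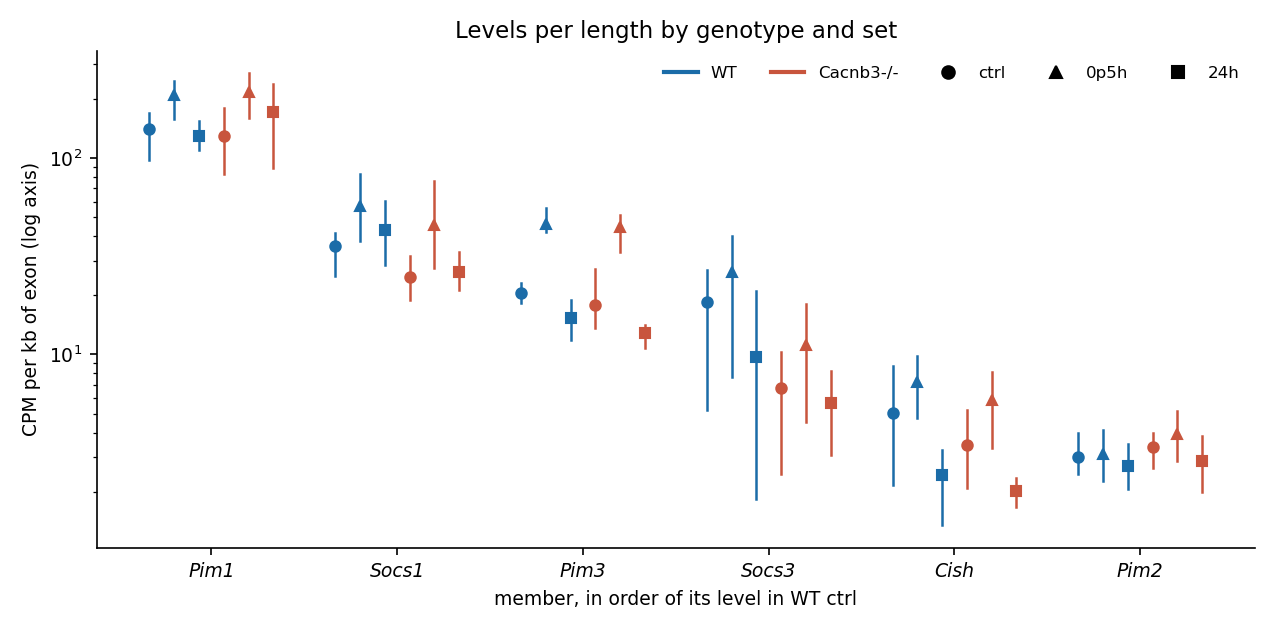
CPM per kb of exon (log axis) of the 6 members by genotype and set; points are means of 5 libraries and lines run from the lowest to the highest library. *Pim1* was above the other genes in every group, at 129 to 217 CPM per kb in the group means.

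Values of single libraries are given in the order of the cultures p974s846, p974s850, p974s855, p974s856 and p974s864 for WT, and p974s843, p974s851, p974s852, p974s853 and p974s865 for those labelled *Cacnb3*-/-. In bulk RNA, fewer cells of a type and less RNA per cell cannot be told apart, and this holds for every level below.

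*Socs1* encodes the SOCS protein best known for limiting interferon and IL-4 signaling. Its CPM in WT was 50.4, 43.7, 48.5, 44.9 and 30.7 in ctrl, 101, 58.2, 70.7, 70.4 and 46.2 in 0p5h, and 73.8, 41.8, 50.6, 60.4 and 34.8 in 24h. Each culture was highest in 0p5h, although the groups overlapped, and p974s864 was the lowest culture in all 3 sets. The libraries labelled *Cacnb3*-/- had 31.2, 31, 28.2, 38.6 and 23.1 CPM in ctrl, 50.1, 51.5, 49.4, 92.8 and 33.7 in 0p5h, and 26.7, 26.9, 39.4, 40.5 and 26.1 in 24h. Again all 5 cultures were highest in 0p5h, p974s853 by the widest margin, and p974s865 was lowest throughout.

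*Socs3*, whose product limits signaling by the IL-6 family, varied widely between cultures. WT libraries had 68.1, 35, 77.9, 71.3 and 15.1 CPM in ctrl, 71.8, 55.7, 115, 116 and 22.1 in 0p5h, and 31.6, 15.6, 60.9, 26.8 and 5.31 in 24h. The order ctrl to 0p5h to 24h went up and then down in every WT culture, while the cultures themselves were as far apart as 5.31 and 60.9 CPM within 24h. CPM of *Socs3* in cultures labelled *Cacnb3*-/- was 28.3, 21.7, 7.08, 10.7 and 29.7 in ctrl, 35.5, 35.4, 13.1, 25.2 and 52.3 in 0p5h, and 19.4, 23.9, 8.89, 14.3 and 15.5 in 24h. All 5 of them were highest in 0p5h, and 24h was above ctrl in 3 and below it in 2.

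*Cish*, the SOCS family member induced by STAT5 downstream of GM-CSF and related cytokines, was at 39, 27.1, 56.2, 24.7 and 13.9 CPM in WT ctrl, 46.6, 49.8, 63.2, 41.3 and 30.5 in 0p5h, and 20.9, 14.6, 19.8, 13.8 and 8.69 in 24h. The 24h libraries all lay below the 0p5h libraries, at 0.336 times their mean. Its levels in the other genotype were 33.4, 21.7, 13.5, 20 and 21.9 CPM in ctrl, 41.4, 36.8, 21.3, 36.8 and 52.5 in 0p5h, and 13.6, 13.7, 10.7, 15.1 and 11.7 in 24h. Here too no 24h library reached a 0p5h library, and in both genotypes each culture had its highest value in 0p5h and its lowest in 24h.

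*Pim1*, the most abundant PIM kinase of these cells, gave 429, 321, 446, 398 and 259 CPM in WT ctrl, 574, 506, 610, 649 and 416 in 0p5h, and 408, 299, 374, 330 and 291 in 24h. All WT libraries of 0p5h were above all of 24h, and p974s864 was again the lowest culture. The corresponding values with the *Cacnb3*-/- label were 323, 258, 474, 442 and 220 CPM in ctrl, 713, 444, 657, 632 and 422 in 0p5h, and 625, 307, 483, 603 and 235 in 24h. Unlike in WT, where 24h was above ctrl in 1 of 5 cultures, it was above ctrl in 5 of 5, with log2 ratios of 0.03 to 0.95; whether this differed between genotypes is given with the interaction test below.

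*Pim2*, low in these cells, showed no order of the sets in WT. It was at 11.1, 7.68, 6.87, 9.46 and 6.97 CPM in WT ctrl, 11.1, 7.55, 6.33, 11.5 and 7.12 in 0p5h, and 9.79, 6.68, 6.92, 5.78 and 8.45 in 24h. Libraries labelled *Cacnb3*-/- had 10.8, 8.85, 8.82, 11.2 and 7.4 CPM in ctrl, 14.4, 10.5, 8.64, 13.3 and 7.99 in 0p5h, and 10.8, 7.87, 5.63, 10.1 and 5.57 in 24h. In that genotype 4 of 5 cultures were highest in 0p5h and 5 of 5 lowest in 24h, and all groups overlapped.

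*Pim3* had the clearest separation between sets. Its CPM in WT was 56.1, 44.6, 54.1, 48.9 and 44.1 in ctrl, 109, 110, 107, 134 and 101 in 0p5h, and 46.1, 28.8, 38.8, 35.5 and 36.9 in 24h. The 0p5h libraries lay above every other WT library, and 24h was the lowest set in all 5 cultures. The libraries with the *Cacnb3*-/- label gave 66, 36.4, 33.1, 46.4 and 33.8 CPM in ctrl, 124, 99.7, 80.3, 118 and 115 in 0p5h, and 33.9, 30, 26.2, 31.9 and 34.1 in 24h. No 0p5h library overlapped with either other set, and 24h was lowest in 4 of 5 cultures.

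**Figure D2:**
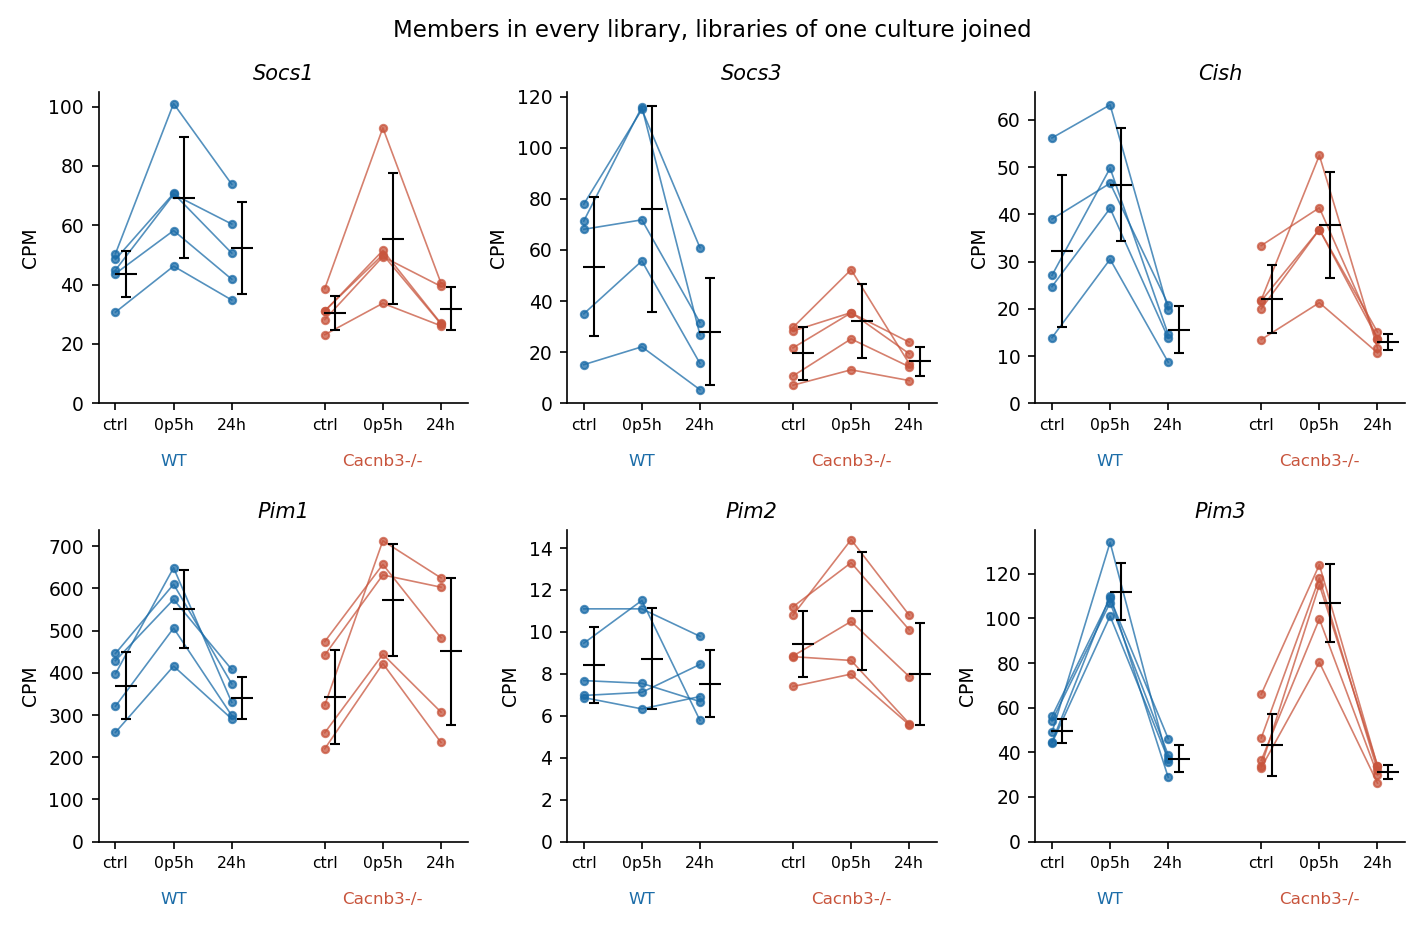
CPM of each member in all 30 libraries, by set and genotype; a line joins the 3 libraries of one culture. For *Socs1*, *Socs3*, *Cish*, *Pim1* and *Pim3* every line peaks at 0p5h, while *Pim2* has no such shape in WT.

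The first comparison asked which of the 6 genes differed between 0p5h and ctrl. *Pim3* rose in both genotypes. WT means were 49.5 ± 5.43 CPM in ctrl and 112 ± 12.7 in 0p5h (SD, n = 5), and libraries labelled *Cacnb3*-/- had 43.1 ± 13.9 and 107 ± 17.5 CPM. The log2 fold change was 1.19 (SE 0.10, adjusted p = 0.000926) in WT and 1.30 (SE 0.20, adjusted p = 0.0171) in the other genotype, by edgeR's quasi-likelihood test with Benjamini-Hochberg adjustment over all genes tested. Thus 1 of 6 members was called higher (adjusted p under 0.05 and at least 2-fold) in each genotype, where 0.176% of all genes were called higher in WT and 0.282% in the other. The call of *Pim3* with the *Cacnb3*-/- label was lost without p974s851, p974s853 or p974s865 (log2 fold change 1.21 to 1.30).

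The other members did not pass in that test. *Socs1*, *Socs3*, *Cish* and *Pim1* had log2 fold changes of 0.52 to 0.68 in WT and of 0.71 to 0.86 with the *Cacnb3*-/- label, and those of *Pim2* were 0.06 and 0.21. Their spread between cultures differed by gene. Of the sum of squares of log2 CPM of *Socs3* in WT, 64.9% lay between cultures, 31.6% between sets and 3.43% in the rest, against 2.95%, 94.1% and 2.96% for *Pim3*. The share between cultures was 56.4% in WT and 36.3% with the *Cacnb3*-/- label for *Socs1*, 33.2% and 57.2% for *Pim1*, 33.2% and 17.4% for *Cish*, and 56.5% and 67.9% for *Pim2*. *Cish* thus had more of its sum of squares between sets (62.5% and 74.3%) than between cultures.

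A fit with culture as a block, which compares the sets within each culture, moved 4 more members past the test in each genotype. *Socs1* rose by a log2 fold change of 0.65 in WT (SE 0.07, adjusted p = 0.000489) and 0.80 with the *Cacnb3*-/- label (SE 0.10, adjusted p = 0.00264). *Socs3* rose by 0.52 (SE 0.08, adjusted p = 0.00327) and 0.76 (SE 0.12, adjusted p = 0.00757). The change of *Cish* was 0.61 (SE 0.12, adjusted p = 0.0114) and 0.77 (SE 0.12, adjusted p = 0.00933), and that of *Pim1* 0.59 (SE 0.05, adjusted p = 7.21e-05) and 0.76 (SE 0.10, adjusted p = 0.00356). *Pim2* stayed at 0.05 (adjusted p = 0.772) and 0.19 (adjusted p = 0.392). In this fit 5 of 6 members passed as higher in both genotypes, against 3.29% of all genes in WT and 1.62% with the *Cacnb3*-/- label. With single cultures left out of the blocked fit, the adjusted p of *Cish* in WT ranged from 0.0064 to 0.0683 and that of *Socs3* with the *Cacnb3*-/- label from 7.22e-06 to 0.0614; *Socs1*, *Pim1* and *Pim3* passed each time in both genotypes. Only *Pim3* reached 2-fold.

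**Figure D3:**
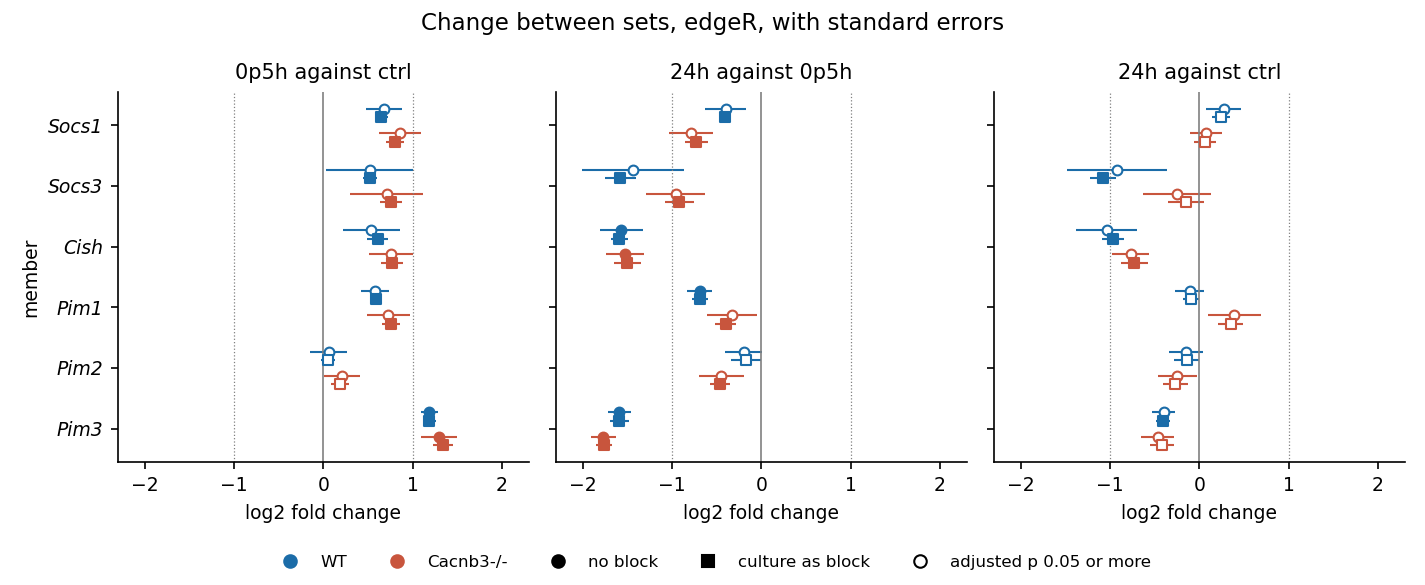
Log2 fold change of each member between sets in edgeR, with standard errors, for both genotypes and for the fits with and without culture as a block. *Pim3* rose from ctrl to 0p5h by 1.19 to 1.34 in the 4 fits, and *Cish* and *Pim3* fell from 0p5h to 24h in all of them.

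The next comparison set 24h against 0p5h. *Cish* and *Pim3* fell in both genotypes: *Cish* went from 46.3 ± 11.9 to 15.6 ± 4.95 CPM in WT, with 37.8 ± 11.2 and 13 ± 1.74 CPM under the *Cacnb3*-/- label, and *Pim3* ended at 37.2 ± 6.21 and 31.2 ± 3.26 CPM (SD, n = 5). The log2 fold change of *Cish* was -1.57 (SE 0.24, adjusted p = 0.00997) in WT and -1.53 (SE 0.21, adjusted p = 0.00454) with the *Cacnb3*-/- label. For *Pim3* it was -1.59 (SE 0.13, adjusted p = 0.00016) and -1.77 (SE 0.14, adjusted p = 0.000139). The count of members called lower was 2 of 6 in each genotype, against 0.592% of all genes in WT and 0.495% in the other. *Pim1* passed the test in WT below the 2-fold minimum (-0.69, SE 0.14, adjusted p = 0.0422) and had -0.33 with the *Cacnb3*-/- label. The call of *Cish* was lost without p974s850 or p974s856 in WT and without p974s851 in the other genotype, with log2 fold changes of -1.57 to -1.52.

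With culture as a block, 5 of 6 members passed as lower in WT (6.78% of all genes) and 6 of 6 with the *Cacnb3*-/- label, where the background was high (14.4% of all genes). *Socs3* was then called in WT at a log2 fold change of -1.58 (SE 0.17, adjusted p = 0.00089), which made 3 of 6 members called lower against 1.36% of all genes, while without a block it was at -1.44 (SE 0.57, adjusted p = 0.356). *Socs1* passed as well, at -0.41 in WT (adjusted p = 0.00719) and -0.73 with the *Cacnb3*-/- label (adjusted p = 0.0025). *Pim1* (-0.40) and *Pim2* (-0.46) passed in the latter genotype, but not once a trend with GC content was removed from the blocked fit (-0.13, adjusted p = 0.567, and -0.26, adjusted p = 0.125). In this genotype and comparison, GC correction also took *Pim3* to -1.37 and *Socs1* to -0.42, both still past the test. The GC content of the members, 53.1% to 62.3%, was above the median of the genes measured over all libraries (49.4%), and the part of GC content in these changes was not tested further.

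Between 24h and ctrl, 0 of 6 members passed in either genotype by edgeR without a block, where 0.0152% of all genes were called in WT and 0% with the *Cacnb3*-/- label. At an unadjusted p under 0.05 there were 2 members in each genotype, and DESeq2 and limma-voom also passed 0. By edgeR 1106 of 13176 genes were under that p in WT and 1343 of 12452 with the *Cacnb3*-/- label. The 2 members in WT were *Cish* (-1.04, SE 0.34, adjusted p = 0.442) and *Pim3* (-0.40, SE 0.13, adjusted p = 0.414). With culture as a block, 3 of 6 passed as lower in WT (3.64% of all genes): *Cish* (-0.97, SE 0.12, adjusted p = 0.00416), *Pim3* (-0.41, SE 0.08, adjusted p = 0.0235) and *Socs3* (-1.08, SE 0.15, adjusted p = 0.0068), of which *Socs3* alone was at least 2-fold (1 of 6, against 0.531% of all genes). *Cish* was lower in 24h than in ctrl in 5 of 5 cultures of each genotype.

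The genotypes were then compared within each set. *Socs3* had the widest difference: its mean was 53.5 ± 27.1 CPM in WT ctrl and 19.5 ± 10.2 with the *Cacnb3*-/- label (36.4% of WT), 76.1 ± 40.2 against 32.3 ± 14.5 in 0p5h (42.5%), and 28 ± 21 against 16.4 ± 5.63 in 24h (58.5%). The WT culture p974s864 lay within the range of the other genotype in ctrl and 0p5h, and below it in 24h. The log2 fold change of *Socs3*, *Cacnb3*-/- over WT, was -1.43 (SE 0.47, adjusted p = 0.248) in ctrl, -1.22 (SE 0.43, adjusted p = 0.254) in 0p5h and -0.76 (SE 0.49, adjusted p = 0.258) in 24h. *Socs1* was at 69.7%, 80.1% and 61.1% of WT in ctrl, 0p5h and 24h, with log2 fold changes of -0.50 (SE 0.16, adjusted p = 0.247), -0.30 (SE 0.26, adjusted p = 0.567) and -0.70 (SE 0.22, adjusted p = 0.0538). All 6 genes overlapped between genotypes in every set. Marker sums also differed by genotype. Those of dendritic cells had medians of 30728 and 23863 CPM in ctrl (WT, then *Cacnb3*-/- label), 34852 and 29347 in 0p5h, and 31039 and 18432 in 24h. Macrophage markers had medians of 679 and 941 CPM in ctrl, 643 and 1031 in 0p5h, and 573 and 740 in 24h, and neutrophil markers 244 and 399, 244 and 339, and 412 and 395. The ranges of the genotypes overlapped in each list and set, and the part of these markers in the differences was not tested.

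By edgeR, 0 of 6 members passed between genotypes in any set or with a culture's 3 libraries summed, and the share of all genes called was 0% in ctrl, 0% in 0p5h, 0% in 24h and 0% in the sums. At an unadjusted p under 0.05 there were 2 members in ctrl (*Socs1* and *Socs3*), 1 in 0p5h (*Socs3*), 1 in 24h (*Socs1*) and 1 in the sums (*Socs3*). Of all genes, 2161 of 13022 were under that p in ctrl and 2103 of 12806 in 0p5h. In 24h 4877 of 12706 genes were, and in the sums 3449 of 14833. DESeq2 passed 1 member, *Socs1* in 24h (-0.71, adjusted p = 0.0208), and limma-voom 0. There DESeq2 passed 1688 of 25806 genes (6.54%) as lower. *Socs1* in 24h also passed with all 30 libraries in one edgeR fit (-0.71, with 14.7% of 13755 genes passing as lower). It passed as well without the filter on low counts (-0.73, with 624 of 25806 genes, 2.42%). The 25806 genes include those with low counts, whereas edgeR with the filter tested 12706, so these shares are not alike. Over all settings with no culture left out, the adjusted p of *Socs1* in 24h ranged from 0.0208 to 0.668. Without the WT culture p974s864, *Socs3* was called in ctrl (-1.66, adjusted p = 0.0431, with 1.05% of all genes called lower) and in the sums (-1.46, adjusted p = 0.0412, with 1.13%), and *Socs1* passed in ctrl (-0.60, with 1.94% of all genes passing as lower) and in 24h (-0.81, with 9.12%). Removal of a GC trend moved the difference in 24h from -0.70 to -0.17 for *Socs1*, from -0.76 to -0.31 for *Socs3*, and from -0.24 to 0.35 for *Pim3*, none of which passed. *Pim1* in 24h was at 340 ± 50 CPM in WT and 451 ± 174 with the *Cacnb3*-/- label (log2 fold change 0.42, SE 0.25, adjusted p = 0.231), and it passed without p974s865 (0.59, adjusted p = 0.0408), where 18.1% of all genes passed as higher.

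**Figure D4:**
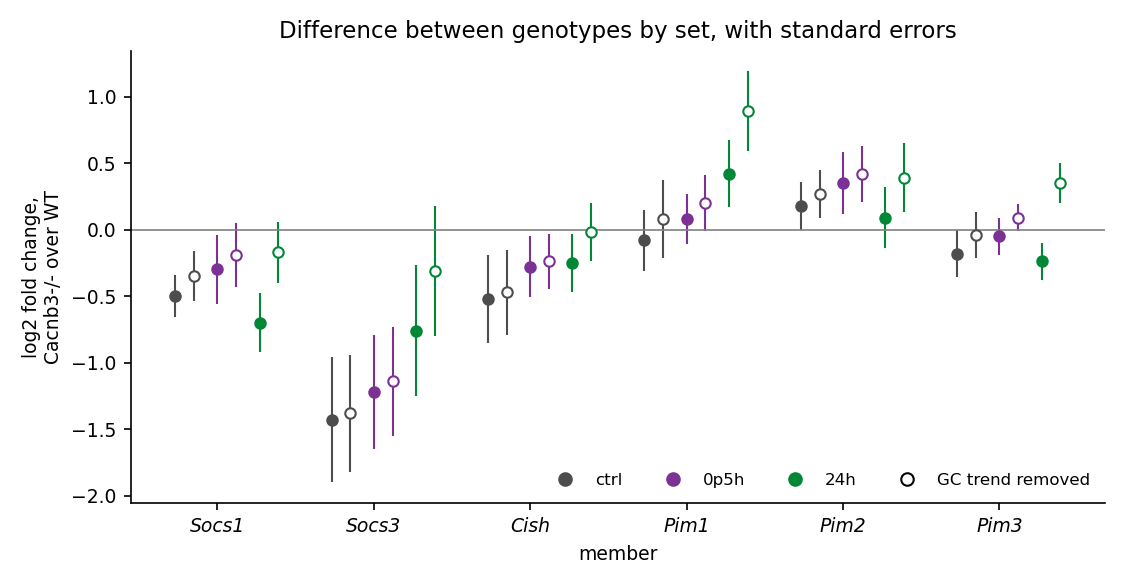
Log2 fold change of each member, *Cacnb3*-/- over WT, in ctrl, 0p5h and 24h, with standard errors, from edgeR. *Socs3* was lowest in all 3 sets at -1.43, -1.22 and -0.76, and 0 of 6 members passed the test in any set.

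Whether the change between sets differed between genotypes was tested by the interaction of genotype and set over 20 libraries. It was called for 0 of 6 members between 0p5h and ctrl, between 24h and ctrl and between 24h and 0p5h, with 0%, 0% and 0% of all genes called. No member was under an unadjusted p of 0.05 by edgeR without a block, and DESeq2 and limma-voom also passed 0. In the same order, 30 of 13465, 658 of 13536 and 789 of 13424 genes were under that p by edgeR. For *Pim1* in 24h against ctrl the difference between genotypes in log2 fold change was 0.51 (SE 0.36, adjusted p = 0.753), and for *Socs3* in 24h against 0p5h it was 0.47 (SE 0.70, adjusted p = 0.84). These values do not show that the 2 genotypes changed alike.

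The rest of the JAK-STAT pathway was taken by lists. In a list of 21 cytokines that signal through JAKs, 9 were tested between 0p5h and ctrl, with a median log2 fold change of 0.81 in WT and 1.51 with the *Cacnb3*-/- label, against 0.008 and -0.009 over all genes. *Osm*, which encodes oncostatin M of the IL-6 family, was called higher in WT (2.14, SE 0.31, adjusted p = 0.0194) and with the *Cacnb3*-/- label (2.42, SE 0.25, adjusted p = 0.0011), and *Lif*, of the same family, in the latter (1.80, SE 0.32, adjusted p = 0.0348). This made 1 of 9 in WT and 2 of 9 in the other, against 0.176% and 0.282% of all genes called higher. *Osm* went from 49.9 ± 26.1 to 218 ± 37.7 and 38.7 ± 14.8 CPM over ctrl, 0p5h and 24h in WT, and from 38 ± 14.4 to 205 ± 26.6 and 42.9 ± 13.1 with the *Cacnb3*-/- label (SD, n = 5). With culture as a block 5 of 9 were called higher in each genotype, against 0.497% of all genes in WT and 0.58% with the *Cacnb3*-/- label, among them *Il6* (1.71, adjusted p = 3.5e-05 in WT, and 2.13, adjusted p = 3.75e-05) and the anti-inflammatory *Il10* (1.08, adjusted p = 0.0122, and 1.66, adjusted p = 0.0183). *Il10* was near the floor, with ctrl means of 0.915 CPM in WT and 0.437 CPM with the *Cacnb3*-/- label. Its 0p5h means were 1.9 and 1.39 CPM. The lowest libraries of *Il10* were at 0.312 CPM in WT and 0.127 with the *Cacnb3*-/- label in ctrl, and at 0.606 and 0.594 in 0p5h. *Il10* may thus have passed the filter on low counts through 0p5h alone, which was not checked. The list medians, the 9 tested and the 5 called include *Il10*, so they are descriptions and no test of the list.

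From 0p5h to 24h *Osm* was called lower in WT (log2 fold change -2.49, adjusted p = 0.000409) and with the *Cacnb3*-/- label (-2.25, adjusted p = 0.000448), and *Lif* in the latter (-1.35, adjusted p = 0.00332). *Il6* had -1.93 in WT with culture as a block (SE 0.19, adjusted p = 0.00053) and -0.35 with the *Cacnb3*-/- label (SE 0.21, adjusted p = 0.221), and the interaction between these sets did not pass (1.57, adjusted p = 0.108 with the block, and 1.54, adjusted p = 0.68 without). Between 24h and ctrl the interaction of *Il6* was called with the block (1.97, adjusted p = 0.0208) and not without it (2.10, adjusted p = 0.753). Levels of *Il6* in ctrl, 0p5h and 24h were 29.5 ± 24.8, 86 ± 57.8 and 22.7 ± 16.5 CPM in WT and 9.25 ± 4.88, 40 ± 22.4 and 30.8 ± 13.4 CPM in the other genotype.

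Among 15 other genes known as STAT5 or STAT3 targets, 1 was called in each genotype, *Junb*, a subunit of the AP-1 transcription factor. It rose from ctrl to 0p5h by a log2 fold change of 1.37 in WT (SE 0.21, adjusted p = 0.0225) and 1.57 with the *Cacnb3*-/- label (SE 0.19, adjusted p = 0.00291), and fell to 24h by 1.42 and 1.75 on that scale (adjusted p = 0.01 and 0.000914). Of all genes, 0.176% in WT and 0.282% with that label were called higher in 0p5h than in ctrl. The shares called lower in 24h than in 0p5h were 0.592% and 0.495%. The median of the list from ctrl to 0p5h was 0.09 and 0.18.

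The kinases, STATs and receptors themselves showed few changes by edgeR without a block. None of the 4 JAKs, 7 STATs, 21 or 22 tested receptors, 5 other SOCS genes, 11 other inhibitors, 9 tested PIM substrates or 6 SOCS box ligase subunits was called between any 2 sets in either genotype. Among them 1 gene passed below 2-fold, *Stat2* from 0p5h to 24h with the *Cacnb3*-/- label (0.62), which is named because it passed. The median change from ctrl to 0p5h in WT was 0.00 for the JAKs, 0.01 for the STATs, -0.02 for the receptors and -0.10 for the other SOCS genes. *Jak2*, the kinase of the GM-CSF receptor, was at group means of 1362 to 1583 CPM and *Jak1* at 189 to 216 CPM, *Stat3* at 450 to 718, *Stat5a* at 75.1 to 146 and *Stat5b* at 86.7 to 101. The receptor subunits *Csf2ra* and *Csf2rb* had group means of 119 to 225 and 1652 to 2824 CPM, and *Socs2*, a SOCS gene that is no member, 244 to 405. These 8 genes passed in no comparison of sets without a block. With culture as a block, *Socs2* was higher in 24h than in 0p5h with the *Cacnb3*-/- label (0.69, adjusted p = 0.00192), where 14.2% of all genes passed as higher, and *Csf2ra* (-0.44, adjusted p = 0.0295) and *Csf2rb* (-0.36, adjusted p = 0.018) were lower. In that fit 4 of 5 other SOCS genes, 4 of 7 STATs and 9 of 21 receptors passed in one direction or the other. Of all genes, 3645 of 12730 did so.

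**Figure D5:**
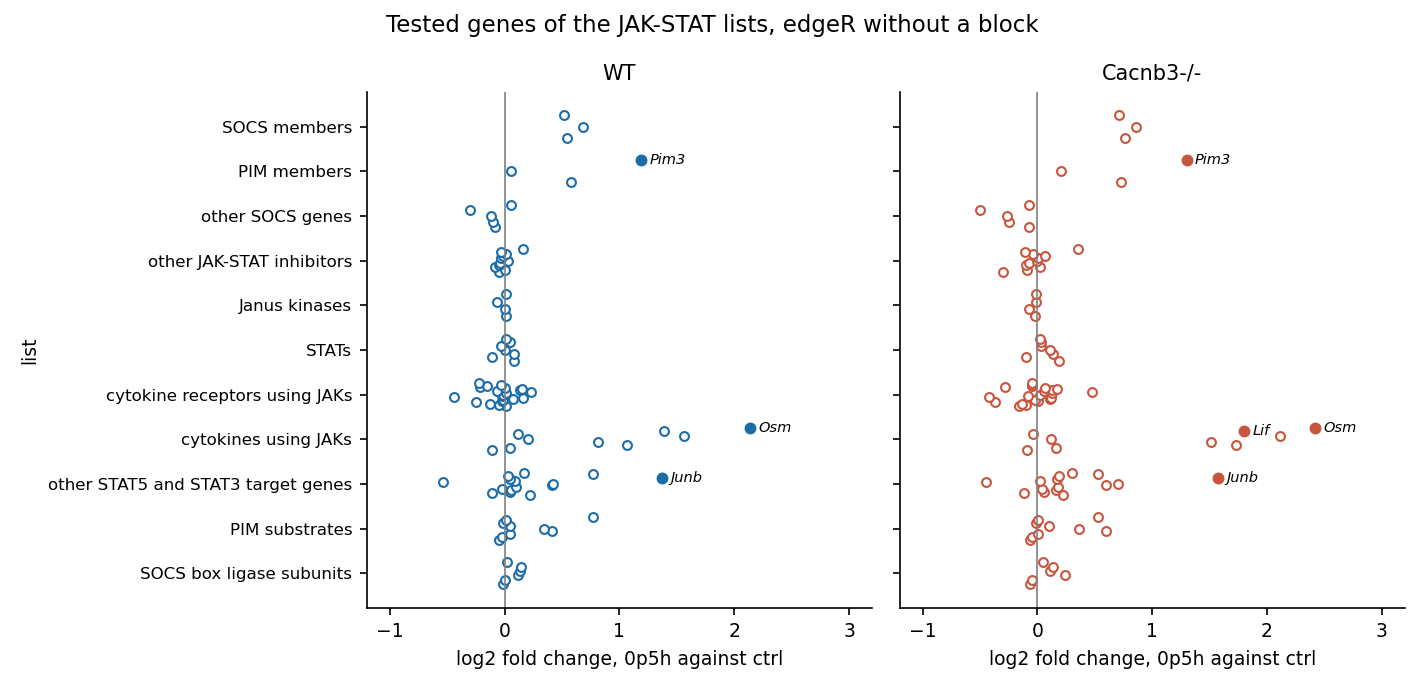
Log2 fold change from ctrl to 0p5h of every tested gene in the JAK-STAT lists, from edgeR without a block, in both genotypes. Points past the test lie to the right of 0 in the lists of PIM members (*Pim3*), cytokines and STAT targets, and in no other list.

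The genes whose levels went most like those of a member over the 30 libraries were listed by Pearson's r of log2 CPM, over 13755 genes. This is a description over libraries that share cultures, genotypes and sets. *Pim3* went with *Sik1* (r = 0.966), *Zfp703* (0.949) and *Junb* (0.932), and *Socs3* with *Arid5a* (0.919), *Gpr183* (0.919) and *Tarm1* (0.917). For *Pim1* the nearest were *Bhlhe40* (0.907), *Foxq1* (0.887) and *Gem* (0.882), for *Socs1* *Sema4c* (0.900), *Cdkn1a* (0.894) and *Prr7* (0.877), for *Cish* *Uck2* (0.896), *Plet1* (0.872) and *Sema4b* (0.866), and for *Pim2* *Hotairm1* (0.840), *Syce2* (0.839) and *Kdelr1* (0.835). Between members r was highest for *Cish* and *Pim3* (0.837) and *Socs3* and *Cish* (0.810) and lowest for *Socs3* and *Pim2* (0.128).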

How the data were processed

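Libraries were poly(A) RNA-seq of BMDCs. The authors deposited raw read counts per gene. Per the file headers, reads were counted over exons with featureCounts 1.5.1 and Ensembl release 79 (GRCm38), from alignments of read 1. The submitters' processing notes name STAR 2.4 and DESeq2. GRCm39 and read pairs are given in the study's methods, and these sources were not reconciled. Symbols and GC content came from GENCODE M39 by Ensembl identifier (38984 of 43629 genes, 89.4%, had a symbol).

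Counts were tested with edgeR 4.0.16 (R 4.3.3) by the quasi-likelihood test with TMM scaling, filterByExpr and Benjamini-Hochberg adjustment over all genes tested. A gene passed at an adjusted p under 0.05 and was called if it also changed at least 2-fold. DESeq2 1.42.0, limma 3.58.1, other scaling, no filter, removal of a GC trend, all 30 libraries in one fit, culture as a block and leaving out each culture were alternatives; sequencing lane, the block with a culture left out and the block with no fold minimum were added after the data were seen. The scripts were tested on simulated data.

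The 3 libraries of a culture share a number in the labels, which do not say what it marks. Deviations from the group means over 13755 genes correlated at over 0.1 in 29 of 30 same-number pairs (median 0.609, against -0.219 for other numbers). Since group means were subtracted, values above 0 for the same number push those of other numbers below 0. The latter are thus no independent comparison. The lowest pair, at 0.075, was between ctrl and 24h with the *Cacnb3*-/- label, so the block there is given only among the alternatives. The labels do not say whether cultures came from separate mice. P-values without a block thus set a change against the spread between these libraries. Those with the block set it against the spread left once differences between cultures are removed.

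The members and lists were chosen with earlier results of these data known. Genes outside the lists were named as the targeted gene, or as the 3 most alike to a member; of each list, up to 4 called genes and 10 preset genes were named.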

Additional observations from a re-analysis of the deposited data

Results flagged for a closer look

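Among the 36 combinations of member, genotype and set, each with 5 libraries, 1 held a library far from the rest: *Pim3* in WT 0p5h was at 134 CPM in p974s856, while the other 4 were at 101 to 110 CPM with a median of 108. Its gap to the nearest library was 0.74 of the range, above Dixon's critical value of 0.71 for 5 values, which chance passes in about 1 in 20 groups. The log2 fold change of *Pim3* from ctrl to 0p5h in WT was 1.10 to 1.24 with each culture left out in turn, and it was called each time.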

How the results depend on the processing

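Of 1476 log2 fold changes of members under alternatives, 1325 kept their side of the threshold, 139 newly passed, 12 no longer passed and 0 reversed among those that passed, while 45 that did not pass changed sign. Of 268 counts of members called, 246 stayed within 1.5 times. With culture as a block and no fold minimum, the count was 5 instead of 1 for 0p5h against ctrl in both genotypes. Of all genes, 3.29% in WT and 1.62% with the *Cacnb3*-/- label passed as higher there. For 24h against 0p5h the count was 5 in WT and 6 with that label instead of 2. There 6.78% and 14.4% of all genes passed as lower. For 24h against ctrl the count was 3 in WT (3.64% of all genes passed as lower) and 1 with that label instead of 0. For WT 24h against ctrl at the 2-fold minimum, the block gave 1, where 0.531% of all genes were called lower. DESeq2 with the block gave 1 (78 of 25631 genes called lower) and the block with the GC trend removed 2 (88 of 13176). The block without each single culture gave 1 each time (43 to 78 genes called lower). With the *Cacnb3*-/- label, *Cish* in 24h against ctrl had -0.73 with the block (adjusted p = 0.0211), where 523 of 12452 genes passed as lower. No member passed an interaction test; with the block the smallest adjusted p was that of *Socs3*, 24h against 0p5h, at 0.132 in edgeR, and 0.0618 over all settings. *Il6* was called in the blocked interaction of 24h against ctrl (1.97, adjusted p = 0.0208; 2.10, adjusted p = 0.753 without a block). The block changed no other count of members by over 1.5 times. Leaving out single cultures gave 1 to 2 for 24h against 0p5h in both genotypes (2 with all), 0 to 1 for 0p5h against ctrl with the *Cacnb3*-/- label (1 with all), and 0 to 1 between genotypes in ctrl and in the sums (0 with all). *Pim1* in WT, 24h against 0p5h, no longer passed with all 30 libraries in one fit, without the filter, or without p974s846, p974s850, p974s855 or p974s856. *Socs3* there was called with lane as a covariate (-1.60). The causes were not tested. Depth limits *Pim2* most, which had 64 counts in its lowest library.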

Other observations

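*Pim1*, *Pim2* and *Socs1* with the *Cacnb3*-/- label were lowest in p974s865 in all 3 sets, and *Socs3*, *Cish* and *Pim3* were lowest in p974s852. In WT, p974s864 was lowest in all 3 sets for *Socs1*, *Socs3*, *Cish* and *Pim1*.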
